A study of Mus musculus with 19 samples.

Results

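The transcripts described here are 10 genes at the output end of the Hippo pathway: the coactivators Yap1 and Wwtr1 (which encodes TAZ), the DNA-binding factors Tead1, Tead2, Tead3 and Tead4, the TEAD cofactor Vgll4, and the target genes Ctgf, Cyr61 and Ankrd1. They were taken by name from 22193 genes listed in each deposited table, and all 10 were found. RNA came from the cerebellum of 19 C57BL/6 mice at postnatal day 60. The groups were 8 mice with Gnas conditionally deleted by Olig1-Cre (Olig1-Gnas), 8 with Gnas conditionally deleted by hGFAP-Cre (hGFAP-Gnas) and 3 wild-type mice (Ctrl). Gnas is the gene of Gsα, which couples receptors to adenylyl cyclase and so to cAMP, and the study, by its title, treats Gsα as a suppressor of medulloblastoma, a cerebellar tumor that hedgehog signals can drive from granule neuron progenitors. Olig1-Cre acts in cells that include the oligodendrocyte lineage, to which it need not be confined. hGFAP-Cre, driven by the human GFAP promoter, acts in neural and glial progenitors. Whole tissue therefore also holds cells with Gnas intact, and which cells lost Gnas was not measured here. The deposited table of hGFAP-Gnas, which also repeats the Ctrl libraries, has the word tumor in its name; the table of Olig1-Gnas does not. Values are FPKM (fragments per kilobase of transcript, scaled to the mapped fragments of the library), a scale per length on which different genes can be compared.

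YAP and TAZ do not bind DNA themselves. In the nucleus they join a TEAD protein and switch on genes of growth and matrix, and the Hippo kinases restrain them by phosphorylation, which keeps them in the cytoplasm. Protein kinase A, the effector of the Gsα and cAMP axis, activates the Hippo kinases in many cells, and in the cerebellum YAP is known from proliferating granule neuron progenitors and from glia. Transcript levels do not show phosphorylation or location, which are the regulated steps of YAP and TAZ.

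Of the 10 members, 5 were called in Olig1-Gnas against Ctrl, 4 higher and 1 lower, where 59.8% of all 14183 tested genes were called, 36.2% higher and 23.6% lower. In hGFAP-Gnas against Ctrl 4 were called, all higher, where 38.9% of 14305 tested genes passed: 26.1% higher and 12.8% lower. A call is a limma adjusted p under 0.05 over all tested genes. The higher members were Tead1, Tead2 and Vgll4 in each knockout, Tead3 in Olig1-Gnas and Cyr61 in hGFAP-Gnas, and the lower member was Tead4 in Olig1-Gnas. The coactivators Yap1 and Wwtr1 were not called in either. Between Olig1-Gnas and hGFAP-Gnas no member was called. The ranges of the groups were apart for 5 members in Olig1-Gnas against Ctrl, beside 53.7% of all tested genes, and for 2 members in hGFAP-Gnas against Ctrl, beside 23.8%. Ankrd1 was the member that did not reach the filter of 1 FPKM in 3 libraries.

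Several facts of the libraries stand beside these values. hGFAP-Gnas 1 stood nearest to Ctrl: its summed FPKM of 6 genes of dividing cells was 15.05, against 230.2 to 624 in the other hGFAP-Gnas libraries, 414 to 922 in Olig1-Gnas and 4.94 to 5.79 in Ctrl. Relative depth, read from steps among the lowest values, was 0.838 to 1.07 of that of Ctrl 2 in 10 deeper libraries and 0.268 to 0.429 in 9 shallower ones (the first 4 of Olig1-Gnas, the last 4 of hGFAP-Gnas, and Ctrl 3). Gnas itself checks the labels only in part, since a listed 0 can be a failed estimate: Rps27a, a ribosomal protein gene, and Mbp, a myelin gene, are listed at 0 in all 19 libraries. In its table, Gnas held 24.05 to 121 FPKM in 5 of 8 Olig1-Gnas libraries, against 651 FPKM in Ctrl 1 and 798 FPKM in Ctrl 2, and is listed at 0 in the other libraries. In the other table it held 40.9 FPKM in 1 of 8 hGFAP-Gnas libraries, against 798 FPKM in Ctrl 2, and is listed at 0 elsewhere, Ctrl 1 included, so the same Ctrl library reads differently in the 2 tables. The Y-linked gene Ddx3y was at 1 FPKM or more in 2 Olig1-Gnas, 7 hGFAP-Gnas and 2 Ctrl libraries, so that its signal is split unevenly between the knockouts. The tissue label fits the markers of Ctrl, where 6 genes of mature granule neurons summed to 1154 to 1509 FPKM. The Ctrl libraries were not alike in choroid plexus genes, which summed to 1247 FPKM in Ctrl 3, 4.67 FPKM in Ctrl 1 and 11.8 FPKM in Ctrl 2. The sum was 2364 FPKM in Olig1-Gnas 8, 142 FPKM in Olig1-Gnas 2, 898 FPKM in hGFAP-Gnas 8 and 296 FPKM in hGFAP-Gnas 6. The other knockout libraries had 5.47 to 18.7 FPKM. The part of choroid plexus in the levels of the members was not tested. In bulk tissue, fewer cells of a type and less RNA per cell cannot be told apart.

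The stretch of 250 bases before the start site is shown for 3 members that rose in at least 1 knockout, in RefSeq's sequence of build GRCm38.p6 and read 5′ to 3′ on the strand of the gene. Capitals mark GGAATG or its reverse complement CATTCC, the letters that TEAD proteins bind, searched on both strands. Tead2 lies on the plus strand (window chr7:45215542-45215791), Vgll4 on the minus strand (chr6:114969204-114969453) and Cyr61, listed there as Ccn1, on the minus strand (chr3:145649986-145650235).
Tead2: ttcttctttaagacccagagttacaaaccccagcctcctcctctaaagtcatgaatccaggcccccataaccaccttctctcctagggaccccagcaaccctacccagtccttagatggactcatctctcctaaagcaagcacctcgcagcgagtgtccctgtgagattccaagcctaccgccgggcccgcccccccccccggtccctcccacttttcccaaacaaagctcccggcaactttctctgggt
Vgll4: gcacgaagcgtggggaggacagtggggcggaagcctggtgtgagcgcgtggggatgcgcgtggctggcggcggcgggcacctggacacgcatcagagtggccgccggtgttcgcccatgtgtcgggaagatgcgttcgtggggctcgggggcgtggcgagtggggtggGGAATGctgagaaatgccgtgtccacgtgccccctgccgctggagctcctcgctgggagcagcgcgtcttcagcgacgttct
Cyr61: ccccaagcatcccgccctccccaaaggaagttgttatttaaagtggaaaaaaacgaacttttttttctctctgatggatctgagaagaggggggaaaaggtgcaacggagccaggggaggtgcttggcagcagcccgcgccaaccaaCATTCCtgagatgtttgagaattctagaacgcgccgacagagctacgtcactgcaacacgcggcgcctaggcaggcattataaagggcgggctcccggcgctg
The window of Vgll4 held GGAATG with its first base at position -82 from the start site, and that of Cyr61 held CATTCC at position -103. The window of Tead2 held neither. Windows were found for 7 of the 10 members, and 6 of them held a match in at least 1 window, the exception being Tead2; Wwtr1 and Tead3 have several start sites and so several chances. Of all 32851 promoters searched over the same length, 12.6% held one. The letters TGGGTGGTC, bound by the hedgehog effectors of the GLI family, were in the windows of 0 of 7 members and in 0.225% of all promoters, also on both strands. These matches describe letters, not binding.

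Neither coactivator transcript was called against Ctrl, and the groups overlapped. Yap1 (chr9:7932000-8004596 of mm9) held 3.09, 7.62 and 10.1 FPKM as the lowest, median and highest Olig1-Gnas library, 5.04, 6.52 and 9.44 FPKM likewise in hGFAP-Gnas, and 6.72, 6.51 and 8.90 FPKM in Ctrl 1, 2 and 3. The Ctrl values lie inside the range of Olig1-Gnas and of hGFAP-Gnas. Its log2 fold on the scale of log2(FPKM + 1) was -0.14 ± 0.32 (SE) in Olig1-Gnas, with a 95% interval of -0.84 to 0.57 (adjusted p = 0.733). In hGFAP-Gnas it was -0.11 ± 0.18, with an interval of -0.50 to 0.27 (adjusted p = 0.617). The Olig1-Gnas libraries spread more for this gene, with a mean of 7.05 ± 2.84 FPKM (SD, n = 8), where hGFAP-Gnas had 6.77 ± 1.30 FPKM (SD, n = 8) and Ctrl 7.37 ± 1.32 FPKM (SD, n = 3).

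Wwtr1 (chr3:57259565-57379832), the gene of TAZ, held 3.28, 5.23 and 8.93 FPKM as the lowest, median and highest Olig1-Gnas library. It held 3.45, 4.93 and 6.64 FPKM in hGFAP-Gnas, and 5.29, 5.32 and 7.39 FPKM in Ctrl 1, 2 and 3. In Olig1-Gnas 5 of 8 libraries lay below every Ctrl library and 1 above, and in hGFAP-Gnas 6 of 8 lay below and 0 above. Its log2 fold was -0.11 ± 0.24 in Olig1-Gnas (interval -0.63 to 0.41, adjusted p = 0.706) and -0.25 ± 0.18 in hGFAP-Gnas (interval -0.65 to 0.15, adjusted p = 0.277). Under quantile normalization the hGFAP-Gnas fold was -0.49 and passed the test (adjusted p = 0.0326), which it did under no other scaling tried. RefSeq places the pseudogene Gm16016 over the Wwtr1 locus, and use of strand in counting is not given in the sources used here. Summed, Yap1 and Wwtr1 came to 6.37, 13.1 and 16.7 FPKM as the lowest, median and highest Olig1-Gnas library, 10.04, 11.1 and 14.7 FPKM in hGFAP-Gnas, and 11.8 to 16.3 FPKM in Ctrl.

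**Figure D1:**
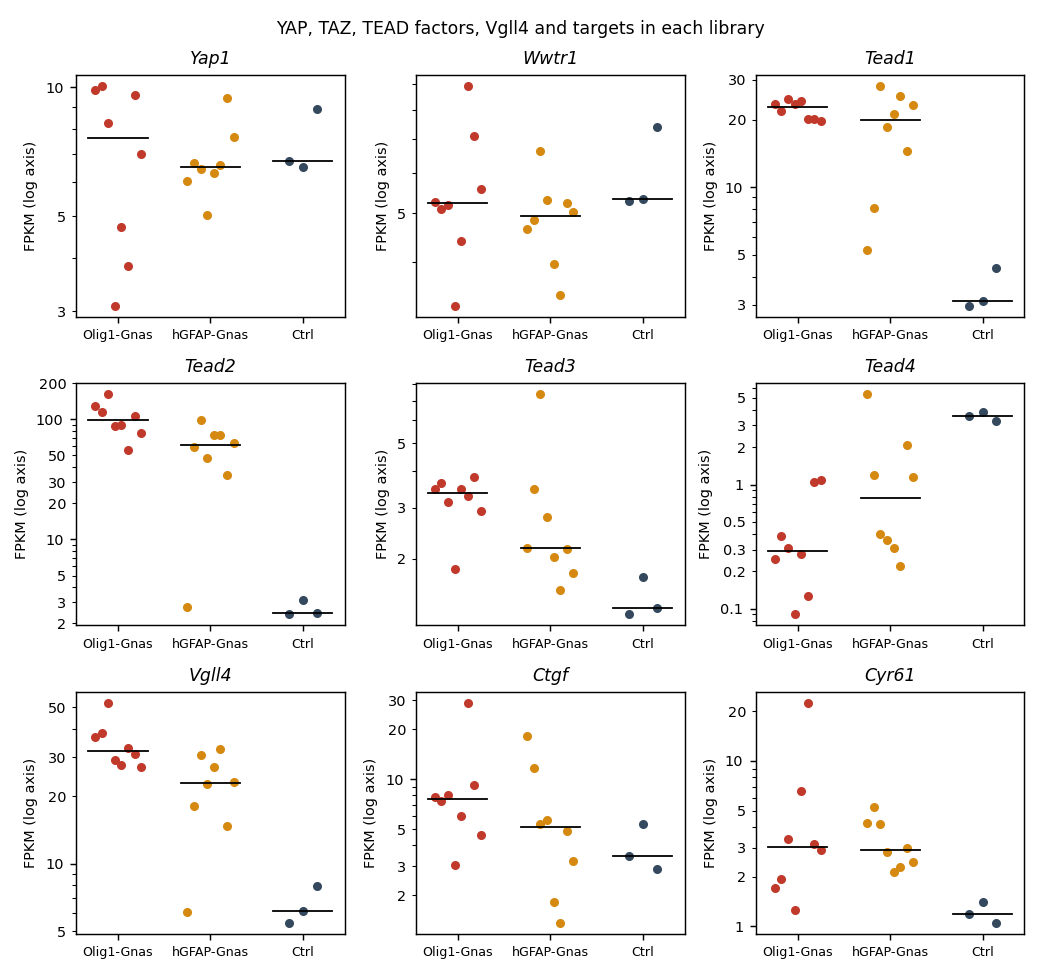
FPKM of the 9 tested members, on a log axis with its own range in each panel; each point is a library and the line is the group's median, with Olig1-Gnas left, hGFAP-Gnas in the middle and Ctrl right. Yap1 and Wwtr1 overlap between all groups, while Tead1, Tead2, Tead3 and Vgll4 of Olig1-Gnas lie above every Ctrl library and Tead4 below.

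Among the DNA-binding partners, Tead2 had the largest change of the members in each knockout. Tead2 (chr7:52471122-52488989), the TEAD gene of neural progenitors and early embryo, held 55.7, 98.0 and 162 FPKM as the lowest, median and highest Olig1-Gnas library. It held 2.74, 61.4 and 98.2 FPKM in hGFAP-Gnas, against 2.38, 3.11 and 2.43 FPKM in Ctrl 1, 2 and 3. All 8 Olig1-Gnas and 7 of 8 hGFAP-Gnas libraries lay above every Ctrl library, and hGFAP-Gnas 1 fell within the Ctrl range. Its log2 fold came to 4.77 ± 0.26 in Olig1-Gnas (adjusted p = 3.43e-08) and 3.59 ± 0.80 in hGFAP-Gnas (adjusted p = 0.0105). Marker lists moved with Tead2, Tead1 and Vgll4: 6 of 6 genes of dividing cells and 5 of 5 of granule progenitors were called higher in each knockout. The progenitor genes summed to 422 to 802 FPKM in Olig1-Gnas libraries, 28.1 (in hGFAP-Gnas 1) to 771 FPKM in hGFAP-Gnas libraries and 5.18 to 7.53 FPKM in Ctrl. Of 4 genes of oligodendrocyte precursors, 2 were called higher in Olig1-Gnas and 3 in hGFAP-Gnas, with sums of 99.4 to 212 FPKM in Olig1-Gnas libraries, 31.1 to 356 FPKM in hGFAP-Gnas libraries and 28.05 to 32.001 FPKM in Ctrl. Their part in the result was not tested.

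Tead1 (chr7:119822833-120050319), a TEAD gene of wide expression, held 19.7, 22.6 and 24.8 FPKM as the lowest, median and highest Olig1-Gnas library. It held 5.24, 19.9 and 28.3 FPKM in hGFAP-Gnas, against 2.97, 3.10 and 4.38 FPKM in Ctrl 1, 2 and 3. No knockout library of either kind overlapped Ctrl, although hGFAP-Gnas 1 lay just above it. On the log2 scale the fold was 2.38 ± 0.13 in Olig1-Gnas (adjusted p = 4.03e-08) and 1.94 ± 0.44 in hGFAP-Gnas (adjusted p = 0.0107). Olig1-Gnas libraries were close to each other for this gene, with a mean of 22.2 ± 2.05 FPKM (SD, n = 8), where hGFAP-Gnas had 18.1 ± 8.24 FPKM (SD, n = 8) and Ctrl 3.48 ± 0.782 FPKM (SD, n = 3).

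Tead3 (chr17:28468617-28487750), best known from placenta, was low in every group. It held 1.85, 3.38 and 3.82 FPKM as the lowest, median and highest Olig1-Gnas library, 1.56, 2.17 and 7.40 FPKM in hGFAP-Gnas, and 1.29, 1.72 and 1.35 FPKM in Ctrl 1, 2 and 3. All 8 Olig1-Gnas and 7 of 8 hGFAP-Gnas libraries exceeded every Ctrl library. Its fold on the log2 scale was 0.76 ± 0.19 in Olig1-Gnas (adjusted p = 0.00413) and 0.57 ± 0.32 in hGFAP-Gnas (adjusted p = 0.159). Among the shallower libraries the fold of Tead3 in Olig1-Gnas was 0.75, in a fit with Ctrl 3 as the sole control.

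Tead4 (chr6:128177160-128250831), a TEAD gene of trophectoderm and muscle, moved the other way. It held 0.0904, 0.292 and 1.09 FPKM as the lowest, median and highest Olig1-Gnas library, and 0.220, 0.777 and 5.36 FPKM in hGFAP-Gnas, against 3.58, 3.85 and 3.24 FPKM in Ctrl 1, 2 and 3. Every Olig1-Gnas library lay below Ctrl, as did 7 of 8 hGFAP-Gnas libraries, and hGFAP-Gnas 1 lay above it. The log2 fold was -1.69 ± 0.23 in Olig1-Gnas (adjusted p = 6.04e-05) and -1.17 ± 0.45 in hGFAP-Gnas (adjusted p = 0.0568). Without hGFAP-Gnas 1 the fold in hGFAP-Gnas was -1.40 and was called (adjusted p = 0.00179). Under quantile normalization it was -1.41 (adjusted p = 0.0336), and with all 19 libraries in 1 fit -1.17 (adjusted p = 0.0219). Most alternatives left Tead4 uncalled in hGFAP-Gnas. Among these were the deeper libraries alone (fold -1.05, limma adjusted p = 0.348) and leaving out any other single library. Markers of mature granule neurons moved the same way, called lower in 6 of 6 genes in Olig1-Gnas and 5 of 6 in hGFAP-Gnas: their sum over Olig1-Gnas libraries was 8.72 to 296 FPKM and over hGFAP-Gnas libraries 36.5 to 963 FPKM, with the 963 FPKM in hGFAP-Gnas 1, against 1154 to 1509 FPKM in Ctrl. Purkinje markers were also called lower, 6 of 6 in Olig1-Gnas and 5 of 6 in hGFAP-Gnas, with sums of 10.9 to 441 FPKM in Olig1-Gnas libraries, 64.1 to 1318 FPKM in hGFAP-Gnas libraries and 1620 to 2666 FPKM in Ctrl. Of markers of mature oligodendrocytes, 6 of 6 were called lower in Olig1-Gnas and 1 of 6 in hGFAP-Gnas, with sums of 20.1 to 272 FPKM in Olig1-Gnas libraries, 129 to 842 FPKM in hGFAP-Gnas libraries and 801 to 1050 FPKM in Ctrl. The part of these lists in the result was not tested.

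The make-up of the TEAD family in each library is given as a description, with no test. The 4 genes summed to 79.2, 125 and 190 FPKM as the lowest, median and highest Olig1-Gnas library, 15.5, 80.9 and 134 FPKM in hGFAP-Gnas, and 10.2, 11.4 and 11.8 FPKM in Ctrl. Tead2 made up 70.3 to 85.2% of that sum in Olig1-Gnas (median 79.2%), 17.6 to 82.3% in hGFAP-Gnas (median 71.9%) and 21.3 to 26.4% in Ctrl (median 23.3%). In Ctrl the 4 genes were more even, and Tead4 was the highest of them in 2 of 3 libraries, with a share of 28.4 to 35.0%. Tead4 made up 0.0801 to 1.09% of the sum over Olig1-Gnas libraries and 0.218 to 34.6% over hGFAP-Gnas libraries. hGFAP-Gnas 1 had a Ctrl-like division, with 34.6% Tead4 and 17.6% Tead2. The summed FPKM of the TEAD genes divided by that of Yap1 and Wwtr1 came to 6.21, 9.86 and 17.7 as the lowest, median and highest Olig1-Gnas ratio, 1.45, 6.90 and 10.3 in hGFAP-Gnas, and 0.701, 0.851 and 0.996 in Ctrl. In all 16 knockout libraries the TEAD sum exceeded the coactivator sum, and in all 3 Ctrl libraries it was the lower of the pair.

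**Figure D2:**
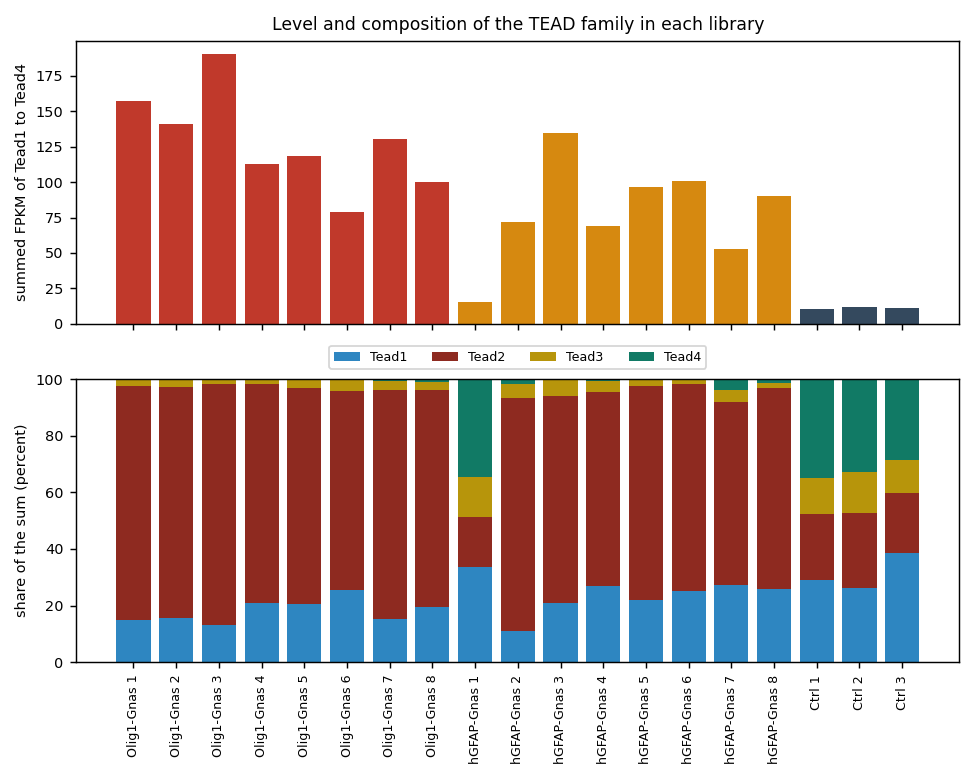
Summed FPKM of Tead1 to Tead4 in each library (top) and the share of each gene in that sum in percent (bottom), with Olig1-Gnas left, hGFAP-Gnas in the middle and Ctrl right. The 8 Olig1-Gnas sums are 79.2 to 190 FPKM and the 3 Ctrl sums 10.2 to 11.8 FPKM, and hGFAP-Gnas 1, at 15.5 FPKM, divides like Ctrl.

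Vgll4 (chr6:114812107-114871770) encodes a cofactor that competes with YAP and TAZ for TEAD proteins and restrains their targets. It held 27.0, 31.9 and 52.5 FPKM as the lowest, median and highest Olig1-Gnas library and 6.09, 22.9 and 32.6 FPKM in hGFAP-Gnas, against 5.45, 6.16 and 7.99 FPKM in Ctrl 1, 2 and 3. All 8 Olig1-Gnas libraries lay above Ctrl, and so did 7 of 8 hGFAP-Gnas libraries, with hGFAP-Gnas 1 inside the Ctrl range. Its log2 fold came to 2.22 ± 0.19 in Olig1-Gnas (adjusted p = 1.83e-06) and 1.49 ± 0.40 in hGFAP-Gnas (adjusted p = 0.0179). Vgll1, Vgll2 and Vgll3, the other vestigial-like genes, did not reach the filter, so 0 of 3 were tested. The lists of dividing cells, granule progenitors and oligodendrocyte precursors given beside Tead2 moved with Vgll4 too, and their part was not tested. RefSeq places the long noncoding gene Gm38876 over the Vgll4 locus.

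Of the 3 target genes, Cyr61 was called higher in hGFAP-Gnas, Ctgf was called in neither knockout and Ankrd1 was not tested. Ctgf and Cyr61 encode secreted matricellular proteins and are the most used readouts of YAP and TEAD activity. Ctgf (chr10:24315247-24318488) held 3.06, 7.60 and 29.0 FPKM as the lowest, median and highest Olig1-Gnas library and 1.37, 5.12 and 18.2 FPKM in hGFAP-Gnas, against 3.43, 5.35 and 2.90 FPKM in Ctrl 1, 2 and 3. The groups overlapped: 6 of 8 Olig1-Gnas libraries exceeded every Ctrl library, while in hGFAP-Gnas 4 lay above and 2 below. On the log2 scale the fold was 0.86 ± 0.46 in Olig1-Gnas (interval -0.15 to 1.88, adjusted p = 0.128) and 0.33 ± 0.56 in hGFAP-Gnas (interval -0.90 to 1.55, adjusted p = 0.653). In hGFAP-Gnas it was 0.93 among the deeper libraries, where it did not pass the test (limma adjusted p = 0.316). Among the shallower libraries, with Ctrl 3 as the sole control, the fold of Ctgf was -0.12. RefSeq places the long noncoding gene Gm15270 over the Ctgf locus.

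Cyr61 (chr3:145309934-145312949) held 1.25, 3.02 and 22.5 FPKM as the lowest, median and highest Olig1-Gnas library and 2.13, 2.90 and 5.28 FPKM in hGFAP-Gnas, against 1.19, 1.41 and 1.05 FPKM in Ctrl 1, 2 and 3. In Olig1-Gnas 7 of 8 libraries and in hGFAP-Gnas all 8 lay above every Ctrl library. Its fold on the log2 scale was 1.08 ± 0.58 in Olig1-Gnas, where it did not pass the test (interval -0.19 to 2.34, adjusted p = 0.128), and 0.91 ± 0.23 in hGFAP-Gnas (adjusted p = 0.0147). The estimate was no smaller in Olig1-Gnas; its error was larger, with 22.5 FPKM in Olig1-Gnas 6. With all 19 libraries in 1 fit, the hGFAP-Gnas call was lost (adjusted p = 0.135). Ankrd1 (chr19:36186454-36194334), a target best known from heart and endothelium, is listed at 0 in all 8 Olig1-Gnas, 7 of 8 hGFAP-Gnas and all 3 Ctrl libraries, and stood at 0.0248 FPKM in hGFAP-Gnas 3.

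**Figure D3:**
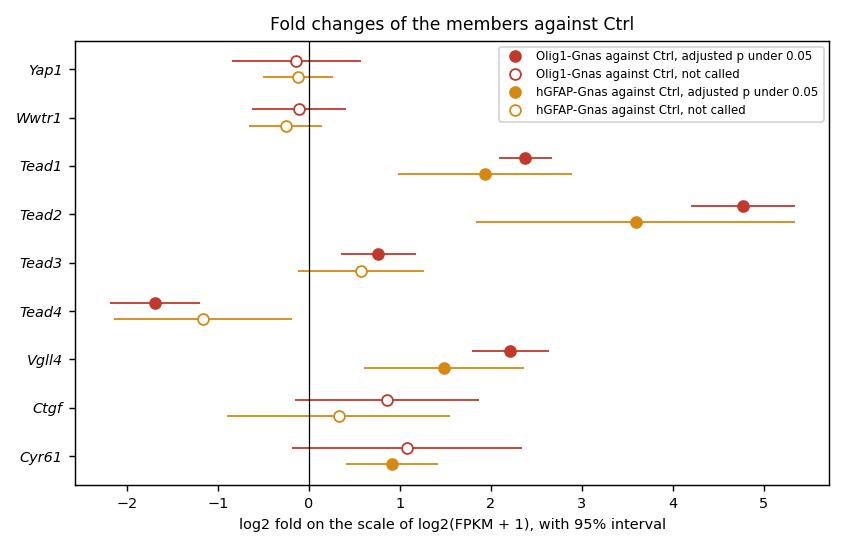
Log2 folds of the 9 tested members against Ctrl on the scale of log2(FPKM + 1), with 95% intervals; filled points passed an adjusted p of 0.05 and open points did not. Tead2 leads with 4.77 in Olig1-Gnas and 3.59 in hGFAP-Gnas, and Tead4 lies on the lower side. The folds of Yap1 and Wwtr1 are negative, with intervals that reach to both sides of no change.

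Both sets of folds depend on the same 3 Ctrl mice, and the calls of hGFAP-Gnas depend on them more. Without Ctrl 1 or without Ctrl 2, 0 of its members were called, with 4 at an unadjusted p under 0.05 in each case and adjusted p-values of 0.0505 to 0.0762 for the 4 called genes; without Ctrl 3, 2 were called, and without hGFAP-Gnas 1, 5. In Olig1-Gnas 5 were called whichever library was left out. Among the deeper libraries alone, the folds in Olig1-Gnas were 4.44 for Tead2, 2.45 for Tead1, 2.17 for Vgll4, 0.81 for Tead3 and -1.58 for Tead4, and all 5 were called. In hGFAP-Gnas those of the deeper libraries were 3.11 for Tead2, 1.74 for Tead1, 1.39 for Vgll4 and 1.13 for Cyr61, and 0 were called (adjusted p from 0.259 to 0.263). That class holds hGFAP-Gnas 1. Among the shallower libraries the hGFAP-Gnas folds were 4.12 for Tead2, 2.01 for Tead1, 1.45 for Vgll4 and 0.75 for Cyr61. Ctrl 3 is the sole control of that class, so the spread of Ctrl is not measured there. Counts from that class are listed below with the other alternatives, and no conclusion is drawn from them. Ctrl 3 also differed from Ctrl 1 and Ctrl 2 in its choroid plexus sum, given above. The deeper class has 2 controls, Ctrl 1 and Ctrl 2. Differences between the classes thus cannot be read as an effect of depth.

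Between the knockouts, no member's ranges were apart, beside 0.598% of all 14386 tested genes, and no member was called, beside 0.41%. Tead2 averaged 103 ± 33.3 FPKM in Olig1-Gnas and 56.5 ± 28.9 FPKM in hGFAP-Gnas (SD, n = 8 each), a log2 fold of 1.18 ± 0.51 (interval 0.09 to 2.27, adjusted p = 0.190). Vgll4 averaged 34.4 ± 8.39 FPKM in Olig1-Gnas and 21.9 ± 8.71 FPKM in hGFAP-Gnas, a log2 fold of 0.73 ± 0.26 (interval 0.18 to 1.28, adjusted p = 0.160). These 2 members had an unadjusted p under 0.05 in limma and also in the two-sided exact permutation test of a single gene (p = 0.00886 for Tead2 and p = 0.00575 for Vgll4, unadjusted). The other 7 tested members had folds of -0.53 to 0.53 with adjusted p from 0.277 to 0.958. For Yap1 the interval of the difference was -0.48 to 0.43 and for Wwtr1 -0.21 to 0.49.

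The order of levels on the FPKM scale changed with the group. In Olig1-Gnas the mean fell in the order Tead2, Vgll4, Tead1, Ctgf, Yap1, Wwtr1, Cyr61, Tead3, Tead4 and Ankrd1, and neighbours were apart in range only for Tead2 over Vgll4, Vgll4 over Tead1, Tead3 over Tead4 and Tead4 over Ankrd1. In hGFAP-Gnas the order was Tead2, Vgll4, Tead1, Yap1, Ctgf, Wwtr1, Cyr61, Tead3, Tead4 and Ankrd1, with all neighbours overlapping except Tead4 and Ankrd1. In Ctrl it was Yap1, Vgll4, Wwtr1, Ctgf, Tead4, Tead1, Tead2, Tead3, Cyr61 and Ankrd1, where neighbours overlapped except Tead2 with Tead3 and Cyr61 with Ankrd1. The 3 highest members of each knockout are thus the called Tead2, Vgll4 and Tead1, and Yap1, first in Ctrl, ranked 5 in Olig1-Gnas and 4 in hGFAP-Gnas. The means of Ctgf and Cyr61 in Olig1-Gnas include 29.0 and 22.5 FPKM in Olig1-Gnas 6. By median there, Yap1 at 7.62 FPKM stood just above Ctgf at 7.60 FPKM, and Tead3 at 3.38 FPKM above Cyr61 at 3.02 FPKM.

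A further list of 19 genes known as YAP and TEAD targets, all tested, moved in both directions. In Olig1-Gnas 6 were called higher and 4 lower, a share of 52.6% with a median log2 fold of 0.0012, beside 59.8% and a median of 0.22 for all genes. In hGFAP-Gnas 6 were higher and 3 lower, 47.4% with a median of 0.08, beside 38.9% and 0.19 for all genes. Foxf2, a forkhead factor of vascular mural cells, held 5.75 to 34.3 FPKM over Olig1-Gnas libraries and 2.75 to 19.2 FPKM over hGFAP-Gnas libraries, against 1.07 to 1.59 FPKM in Ctrl. Its log2 fold was 2.56 ± 0.51 in Olig1-Gnas (adjusted p = 0.00105) and 2.17 ± 0.39 in hGFAP-Gnas (adjusted p = 0.00699). Tgfb2, which encodes a ligand of the TGF-β family, held 5.36 to 14.9 FPKM over Olig1-Gnas libraries and 2.91 to 13.7 FPKM over hGFAP-Gnas libraries, against 2.30 to 3.27 FPKM in Ctrl. The folds of Tgfb2 were 1.48 ± 0.24 in Olig1-Gnas and 1.55 ± 0.37 in hGFAP-Gnas. Igfbp3, an insulin-like growth factor binding protein, had 1.61 ± 0.35 in Olig1-Gnas and 1.30 ± 0.36 in hGFAP-Gnas, and Ccdc80, a secreted matrix protein, had 1.64 ± 0.48 in Olig1-Gnas (adjusted p = 0.0106) and 1.36 ± 0.44 in hGFAP-Gnas (adjusted p = 0.0322). The call of Ccdc80 in Olig1-Gnas was lost among the deeper libraries (limma adjusted p = 0.0595). In hGFAP-Gnas it was lost under quantile normalization (adjusted p = 0.0680), among deeper libraries (0.279), and when any 1 of the Ctrl libraries or of hGFAP-Gnas 4, 5 and 8 was left out (0.0508 to 0.113). Those 4 genes were the largest called changes of the list in each knockout. The genes called lower in Olig1-Gnas had folds of -0.81 to -1.43. The counts in hGFAP-Gnas rest on some libraries: 1 was called without Ctrl 1, 1 without Ctrl 2, 4 without Ctrl 3 and 11 without hGFAP-Gnas 1.

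Upstream, the Hippo kinases and their regulators, 24 of 25 listed genes tested, also split. Lats2, Amotl2 and Ptpn14 are in this list and in the target list, so Lats2 counts as lower in both. In Olig1-Gnas 11 were higher and 4 lower, 62.5% with a median fold of 0.46, beside 59.8% and 0.22 for all genes. In hGFAP-Gnas 7 were higher and 3 lower, 41.7% with a median fold of 0.33, beside 38.9% and 0.19 for all genes, so the share called was near that of all genes in each knockout. The 4 largest called changes were the same genes in each knockout. Map4k4, a kinase that can phosphorylate the Hippo kinases LATS, held 155 to 248 FPKM over Olig1-Gnas libraries and 41.5 to 190 FPKM over hGFAP-Gnas libraries, against 38.2 to 40.0 FPKM in Ctrl. Its log2 fold was 2.20 ± 0.15 in Olig1-Gnas (adjusted p = 1.89e-07) and 1.62 ± 0.40 in hGFAP-Gnas (adjusted p = 0.0143). Limd1 and Wtip, adaptor proteins of the Ajuba family that bind LATS, had folds of 2.15 ± 0.16 and 1.72 ± 0.19 in Olig1-Gnas and of 1.71 ± 0.40 and 1.18 ± 0.32 in hGFAP-Gnas. Dchs1, a giant cadherin upstream of the pathway, had 2.08 ± 0.21 in Olig1-Gnas and 1.68 ± 0.45 in hGFAP-Gnas. Lats2, a kinase that inactivates YAP and is itself a target, held 4.23 to 9.12 FPKM over Olig1-Gnas libraries and 5.43 to 12.5 FPKM over hGFAP-Gnas libraries, against 16.3 to 17.7 FPKM in Ctrl. Its folds were -1.16 ± 0.19 in Olig1-Gnas and -0.90 ± 0.20 in hGFAP-Gnas. Stk3, which encodes a kinase that activates LATS, had folds of 1.15 ± 0.14 in Olig1-Gnas and 0.69 ± 0.22 in hGFAP-Gnas, both called. In hGFAP-Gnas the count of this list was 0 without Ctrl 1 or Ctrl 2, with 10 at an unadjusted p under 0.05 in each case, 4 without Ctrl 3 and 13 without hGFAP-Gnas 1. Between the knockouts 0 genes of either list were called.

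**Figure D4:**
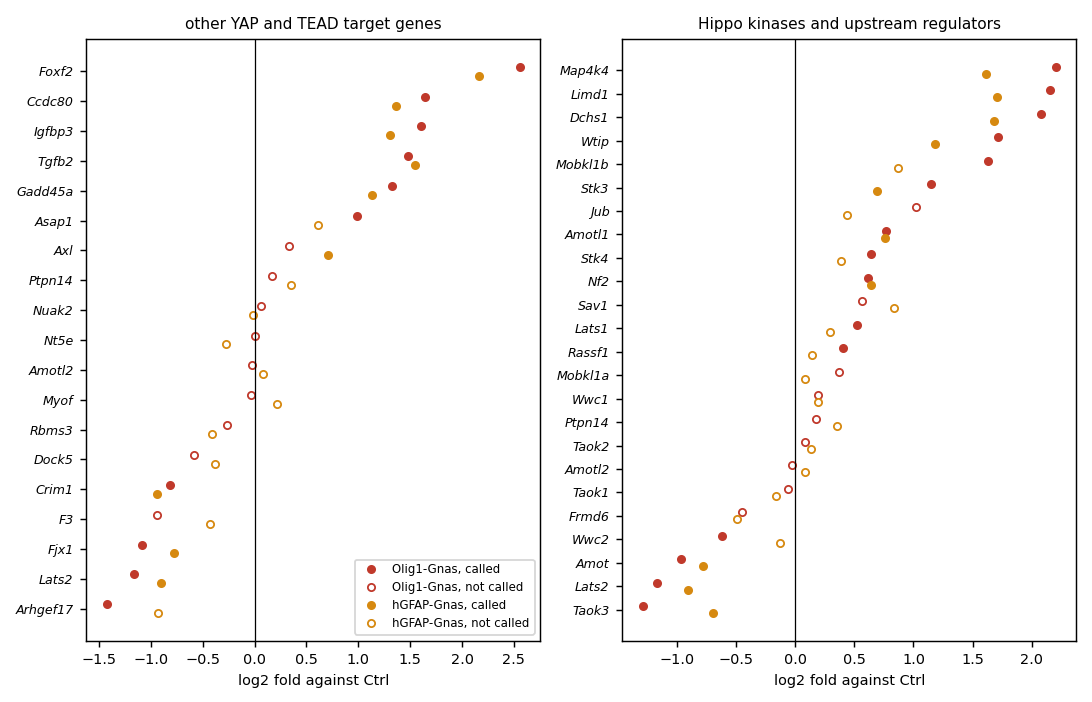
Log2 folds against Ctrl of the other YAP and TEAD target genes (left) and the Hippo kinases and upstream regulators (right); filled points passed an adjusted p of 0.05, with Olig1-Gnas in red and hGFAP-Gnas in orange. Members of both lists lie on either side of zero, from 2.56 for Foxf2 to -1.43 for Arhgef17 in Olig1-Gnas.

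In all, 10 relations between members were computed, 5 over the 8 libraries of each knockout, and none passed with Benjamini-Hochberg adjustment. Ctgf and Cyr61 had the closest: Pearson's r was 0.82 in Olig1-Gnas (exact permutation p = 0.0319, adjusted 0.160) and Spearman's rho 0.60 (exact permutation p = 0.132, adjusted 0.661). Without Olig1-Gnas 4 and 6, the libraries farthest from the median of Ctgf, r was -0.27, so the relation in Olig1-Gnas rests on those libraries. In hGFAP-Gnas r was 0.86 (exact permutation p = 0.00516, adjusted 0.0516) and rho 0.88 (exact permutation p = 0.00724, adjusted 0.0724), and r was 0.91 without hGFAP-Gnas 1 and 6. Yap1 with Wwtr1 had r of 0.21 in Olig1-Gnas and 0.06 in hGFAP-Gnas, and Yap1 with Ctgf -0.0010 and -0.17, with adjusted exact permutation p of 0.993 or above for all 4.

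Cell type markers were set beside the members in a second family of 24 relations, chosen after seeing the data, on mean log2(FPKM + 1) of each list; each p here is of an exact permutation test over 8 libraries. In Olig1-Gnas, Vgll4 with the dividing-cell list had r = 0.63 (exact permutation p = 0.0937, adjusted 0.161; rho = 0.48, exact permutation p = 0.243, adjusted 0.324) and r = -0.23 without the 2 libraries farthest from the median. In hGFAP-Gnas, Vgll4 went with that list (r = 0.97, exact permutation p = 3.22e-04, adjusted 0.00744; rho = 0.98, exact permutation p = 3.97e-04, adjusted 0.00952). Without hGFAP-Gnas 1 and 7, r was 0.86 (exact permutation p = 0.0264, adjusted 0.200). Tead2 in Olig1-Gnas had r = 0.20 (exact permutation p = 0.640, adjusted 0.698; rho = 0.10, exact permutation p = 0.840, adjusted 0.877) and r = -0.82 without the 2 farthest libraries. In hGFAP-Gnas, Tead2 went with the list, with r = 0.98 (exact permutation p = 0.00397, adjusted 0.0170) and rho = 0.90 (exact permutation p = 0.00456, adjusted 0.0365). But r was 0.44 without hGFAP-Gnas 1 and 7, so the strength of that relation depends on them. Tead4 with the dividing-cell list had r = -0.73 in Olig1-Gnas (exact permutation p = 0.0403, adjusted 0.0807; rho = -0.64, exact permutation p = 0.0962, adjusted 0.178; r = -0.76 without libraries 3 and 8). It went against that list in hGFAP-Gnas (r = -0.93, exact permutation p = 0.00109, adjusted 0.00744; rho = -0.93, exact permutation p = 0.00223, adjusted 0.0268; r = -0.72 without 1 and 7). With mature granule neurons, Tead4 in Olig1-Gnas had r = 0.96 (exact permutation p = 0.00424, adjusted 0.0170) and rho = 0.74 (exact permutation p = 0.0458, adjusted 0.0917). There r was 0.58 without libraries 7 and 8, on which the strength of the relation depends. In hGFAP-Gnas, Tead4 with that list had r = 0.91 (exact permutation p = 0.00112, adjusted 0.00744) and rho = 0.79 (exact permutation p = 0.0279, adjusted 0.0670). Without libraries 1 and 7, r was 0.90 (exact permutation p = 0.0569, adjusted 0.200). Ctgf with endothelial genes had r = -0.22 in Olig1-Gnas (exact permutation p = 0.582, adjusted 0.665; rho = -0.17, exact permutation p = 0.703, adjusted 0.804). In hGFAP-Gnas it had r = 0.86 (exact permutation p = 0.00809, adjusted 0.0194) and rho = 0.88 (exact permutation p = 0.00724, adjusted 0.0429), with r = 0.76 without libraries 5 and 6. Tead1 with the dividing-cell list had r = 0.54 in Olig1-Gnas (exact permutation p = 0.173, adjusted 0.259). In hGFAP-Gnas Tead1 had r = 0.85 (exact permutation p = 0.00650, adjusted 0.0194), and 0.78 without libraries 1 and 7. No difference between the knockouts in these relations was tested. None of the 24 passed with adjustment once 2 libraries were left out of each. That step leaves 6 libraries and removes those with the most distant list levels. A relation that no longer passed is thus not shown to be absent.

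**Figure D5:**
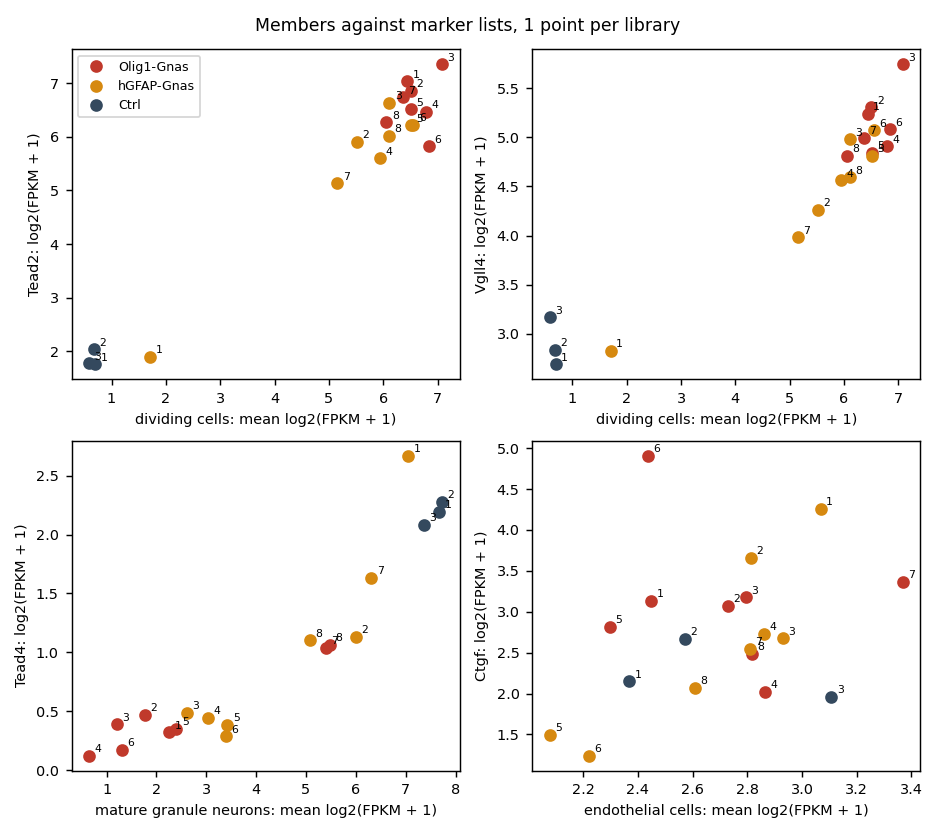
log2(FPKM + 1) of a member against the mean log2(FPKM + 1) of a marker list, with each point a library, its number beside it, and the groups in color. Among hGFAP-Gnas, Tead2 and Vgll4 are high where dividing-cell genes are high, with hGFAP-Gnas 1 beside Ctrl, and Ctgf is highest in Olig1-Gnas 6, at 29.0 FPKM, whose endothelial level is among the lower ones.

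Markers of cells in which YAP and TAZ are known to act, in vessels, meninges and glia, are given beside these values. Genes of endothelial cells summed to 43.0 to 103 FPKM in Olig1-Gnas, 31.3 to 90.1 FPKM in hGFAP-Gnas and 38.8 to 73.9 FPKM in Ctrl, and 1 of 8 was called, lower, in Olig1-Gnas and 0 of 8 in hGFAP-Gnas. Pericyte and smooth muscle genes summed to 24.6 to 71.8 FPKM in Olig1-Gnas, 25.9 to 73.6 FPKM in hGFAP-Gnas and 29.2 to 47.9 FPKM in Ctrl. Genes of meninges and fibroblasts summed to 24.6 to 215 FPKM in Olig1-Gnas, 62.6 to 149 FPKM in hGFAP-Gnas and 63.1 to 107 FPKM in Ctrl, with Ogn at 0 in all groups. These ranges overlap between the groups. Genes of Bergmann glia and astrocytes summed to 266 to 1560 FPKM in Olig1-Gnas, 942 to 3098 FPKM in hGFAP-Gnas and 2577 to 3337 FPKM in Ctrl; of 10 genes, 1 was called higher and 6 lower in Olig1-Gnas, and 1 higher and 2 lower in hGFAP-Gnas. Of 8 microglia and macrophage genes 5 rose in Olig1-Gnas and 6 in hGFAP-Gnas, with sums of 356 to 1234 FPKM in Olig1-Gnas, 91.2 to 775 FPKM in hGFAP-Gnas and 50.9 to 71.7 FPKM in Ctrl. Of the 24 relations, Wwtr1 with the Bergmann glia list in Olig1-Gnas had rho = 0.86 (exact permutation p = 0.0107, adjusted 0.0429). Its r there was 0.69 (exact permutation p = 0.0569, adjusted 0.105), and r was 0.17 in hGFAP-Gnas. Yap1 with that list had r = 0.45 in Olig1-Gnas and 0.34 in hGFAP-Gnas. Cyr61 with endothelial genes had r = -0.41 and 0.76 likewise (adjusted exact permutation p = 0.386 and 0.0642). Beyond such relations, the part of these cells in the levels of Yap1, Wwtr1, Ctgf and Cyr61 was not tested.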

How the data were processed

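Per the labels, RNA was purified from cerebellum with Trizol and RNeasy columns, and TruSeq libraries made from 1 ug were sequenced on an Illumina instrument. The submitters' processing notes name TopHat, Cufflinks and mm9; the sources used here give no version, annotation or strand use. The authors deposited FPKM per gene and library, as 1 table per knockout, each of which repeats the Ctrl libraries. The repeated values are equal for Ctrl 2 and 3. For Ctrl 1 they differ in 5106 genes, Gnas among them (651 FPKM and a listed 0), with a median ratio of 1.0 and a middle range of 0.998 to 1.001 (percentiles 5 and 95). The knockouts were compared directly across the tables. Ctrl levels in the text are those of the Olig1-Gnas table. Rows without a gene name, 43342 of them per file, were dropped. Read totals are unknown, so no counting intervals are given; relative depth was read from values under 0.5 FPKM, and libraries under 0.6 of Ctrl 2 form the shallower class.

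Genes that reached 1 FPKM in 3 or more of the libraries compared were tested on log2(FPKM + 1) with limma 3.58.1 (R 4.3.3), with trend and robust moderation, on all genes, with Benjamini-Hochberg adjustment. Because 1 is added before the log, folds of Tead4, Cyr61 and other low genes understate their ratios. The procedure was tested on simulated data. The mice are separate animals by the labels. Exact permutation tests were two-sided, with 165 arrangements and a smallest p of 0.00606 against Ctrl, and 12870 between knockouts. Relations used exact permutation of the pairings. Each pathway list was described by its called members with the 4 largest folds. Alternatives changed the offset (0.1), filter (none, or 5 FPKM), scaling (quantile, upper quartile), moderation, zeros taken as missing, samples, replicate block, depth class, Y-linked signal and each library in turn. The members and lists were chosen with earlier results of these data known. Promoter windows and relations with marker lists were added after seeing the data.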

Additional observations from a re-analysis of the deposited data

Results flagged for a closer look

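In each knockout group, the values of log2(FPKM + 1) of the 9 tested members were searched for a library far from the other 7: 18 member and group pairs in all, of which 4 were past the critical ratio of gap to range for 8 libraries, 0.526. The ratios are on the log2(FPKM + 1) scale, and levels beside them are in FPKM. Chance flags about 5% of groups. Tead2 in hGFAP-Gnas 1 had a ratio of 0.683: it held 2.74 FPKM, a level inside the Ctrl range. Tead3 in Olig1-Gnas 4 had a ratio of 0.605, as the lowest library at 1.85 FPKM, and Tead3 in hGFAP-Gnas 3 had a ratio of 0.528, as the highest at 7.40 FPKM. Ctgf in Olig1-Gnas 6 had a ratio of 0.535: it held 29.0 FPKM, in the library that also holds the highest Cyr61 (22.5 FPKM) and Wwtr1 (8.93 FPKM) of its group. Its endothelial sum was 46.4 FPKM, near the low end of the Olig1-Gnas range of 43.0 to 103 FPKM. No cause was tested.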

How the results depend on the processing

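No member that was called in a comparison turned direction under any alternative tried. In Olig1-Gnas against Ctrl, 5 members and 8485 genes were called; 3 members were called with the 5 FPKM filter, and 3 members and 5141 genes among the shallower libraries, where Tead4 missed the filter. Leaving out each library gave 5 to 5 members and 6971 to 9546 genes. In hGFAP-Gnas against Ctrl (4 members, 5570 genes), 0 members and 6 genes were called by limma among the deeper libraries (3 members at an unadjusted p under 0.05), 2 members and 2277 genes among the shallower, and 0 to 5 members and 818 to 8164 genes with each library left out, the lowest without Ctrl 2 and the highest without hGFAP-Gnas 1. In both comparisons with Ctrl, the counts among the shallower libraries rest on Ctrl 3 as the sole control. The spread of Ctrl is not measured there, so these counts cannot decide which genes changed. Between knockouts (59 genes), counts were 35 with the 5 FPKM filter, 170 with all 19 libraries in 1 fit and 166 with a term for depth class. A term for Y-linked signal gave 3 genes. That signal was present in 2 libraries of Olig1-Gnas and 7 of hGFAP-Gnas, so the term and the knockout overlap in part. Counts were 3 among deeper libraries and 11 to 104 with each library left out. Throughout, 0 members were called. The relation of Ctgf with Cyr61 in hGFAP-Gnas passed with an offset of 0.1 (r = 0.87, adjusted exact permutation p = 0.0499). The causes of these shifts were not tested. Quantile normalization moved the median fold of all genes from 0.22 to 0.06 in Olig1-Gnas and from 0.19 to -0.01 in hGFAP-Gnas.

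Pairing by replicate number was looked for in deviations from group means. Those of same-numbered libraries correlated at -0.18 to 0.05 for Olig1-Gnas with Ctrl, -0.10 to 0.12 for hGFAP-Gnas with Ctrl and -0.17 to 0.25 between knockouts. With 3 pairs in each comparison with Ctrl, the check cannot exclude that same-numbered libraries were handled together. In those comparisons, a fit with the number as a block takes its folds from these 3 pairs only. The knockout libraries without a same-numbered Ctrl add nothing to them. The pairs of hGFAP-Gnas include hGFAP-Gnas 1, which stood nearest to Ctrl. With the number as a replicate block, 6 members and 8394 genes were called in Olig1-Gnas (Ctgf added, fold 0.87, adjusted p = 0.0290), 0 members and 0 genes in hGFAP-Gnas by limma (6 members and 2654 genes at an unadjusted p under 0.05), and 0 members and 25 genes between knockouts. A library correlated best with its own number in 1 of 3 pairs for Olig1-Gnas with Ctrl, 2 of 3 for hGFAP-Gnas with Ctrl and 0 of 8 between knockouts.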

Other observations

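By deviation of log2(FPKM + 1) from the group mean over all 19 libraries, the genes of 14591 most like Yap1 were Mill2 (r = 0.90), Magt1 (r = 0.89), Gm9705 (r = 0.86) and Trmt2b (r = 0.85). Magt1 encodes a magnesium transporter and oligosaccharyltransferase subunit and Trmt2b a mitochondrial RNA methyltransferase. Those most like Ctgf were Sik1 (r = 0.91), Lrrc29 (r = 0.90), 2310047M10Rik (r = 0.90) and Klf4 (r = 0.89). Sik1 encodes a salt-inducible kinase whose transcript cAMP induces, and Klf4 an early-response transcription factor. Sik1 held 0.383, 1.23 and 5.15 FPKM as the lowest, median and highest Olig1-Gnas library, 0.276, 0.999 and 6.11 FPKM in hGFAP-Gnas, and 2.25, 2.42 and 3.52 FPKM as the lowest, median and highest Ctrl library. Klf4 likewise held 0.529, 1.204 and 7.26 FPKM in Olig1-Gnas, 0.746, 1.54 and 5.73 FPKM in hGFAP-Gnas, and 1.32, 1.32 and 1.72 FPKM in Ctrl. These are the highest of 14591 values each and are given as a description with no test. Mill2 and Gm9705 are low, at medians of 0.766 to 1.72 FPKM over the groups. Sik1, Klf4 and Lrrc29 are low too, Lrrc29 at medians of 1.35 to 1.49 FPKM.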
